A study of Mus musculus with 4 samples.

Results

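miR-135a (mmu-miR-135a) and miR-135b (mmu-miR-135b) are a pair of near-identical mouse microRNAs (miRNAs). They are the 2 of 590 mature miRNAs listed in these libraries whose names belong to the miR-135 family. The cells are synovial fibroblasts, mesenchymal cells that line the joint, kept in culture, and their small RNA was sequenced. There were 2 cultures from TghuTNF mice, which carry a human TNF transgene, and 2 from wild-type (WT) littermates. All mice were 8 weeks old, of a mixed CBA/J and C57BL/6/J background, and all cultures came from digested hind joints and were at passage 4. The labels describe the cultures as mostly positive for CD90.2, VCAM-1 and ICAM-1 and almost free of Mac1-positive cells. They give neither the promoter of the transgene nor the number of mice behind a culture. The members were picked by name, with the name chosen because both had very low counts in TghuTNF, so the difference between genotypes is given for them as a description and not tested. Per library, the members' matching reads, which the deposited tables split by 0, 1 or 2 mismatches, were read beside those of the rest of the table.

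A miRNA guides an Argonaute protein to mRNAs that pair with its seed, bases 2 to 8 from the 5′ end, and lowers their translation and stability. The miR-135 family is known to repress Smad5, a transducer of BMP signals, and Runx2, the master factor of osteoblasts, in mouse cells. In human colorectal cells it is known to repress APC, a brake on Wnt signalling. Synovial fibroblasts, like osteoblasts, are cells of mesenchymal origin, and TNF-driven arthritis is known to erode bone at the joint.

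The mature sequence and the hairpins are shown because every result on this pair turns on 1 base. They are from RefSeq on GRCm38.p6. In the first sequence capitals mark the seed. In the hairpins capitals mark the stretch that aligns to miR-135a-5p.
miR-135a-5p: uAUGGCUUuuuauuccuauguga
Mir135b hairpin: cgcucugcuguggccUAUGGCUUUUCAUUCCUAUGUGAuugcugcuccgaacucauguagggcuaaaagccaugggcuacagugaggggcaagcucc
Mir135a-1 hairpin: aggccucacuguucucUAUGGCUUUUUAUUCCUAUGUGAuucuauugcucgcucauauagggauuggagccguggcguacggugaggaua
Mir135a-2 hairpin: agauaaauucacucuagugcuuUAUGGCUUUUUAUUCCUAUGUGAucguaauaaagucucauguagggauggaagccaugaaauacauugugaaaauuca

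The Mir135b stretch differed from miR-135a-5p over 23 bases by U11C, with the base of miR-135a-5p first and positions counted from its 5′ end. Position 11 lies outside the seed, so the seed is the same in all 3 hairpins. Both Mir135a hairpins hold miR-135a-5p with 0 substitutions, so reads of miR-135a do not tell its 2 loci apart. The deposited rows name no arm. Both were taken as the 5p arm, because their mismatch classes differ by 1 base as these stretches do, and the sequence of miR-135b is the stretch of its hairpin. By RefSeq's coordinates on GRCm38.p6 and the genes of GENCODE M21, Mir135b lies on chromosome 1 at 132198088 to 132198184 (plus strand), in an intron of Lemd1 and of AC124108.1, both on the same strand. Mir135a-1 lies on chromosome 9 at 106154124 to 106154213 (plus strand), in an intron of D030055H07Rik on the same strand and across an exon of Glyctk on the opposite strand. Mir135a-2 lies on chromosome 10 at 92072086 to 92072185 (minus strand), in an intron of the long non-coding RNA Rmst.

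The 4 libraries held 16680860 to 27362819 matches, of which 66.0% to 70.5% were perfect. The share with 2 mismatches was highest in TghuTNF replicate 2, at 11.7%, and 8.21% to 8.73% elsewhere. A count of 0 allows up to 3 counts, 0.109 to 0.183 CPM (counts per 1000000 matches, scaled with TMM). This is a fixed one-sided limit, whereas the exact intervals of other counts are two-sided. Without molecular identifiers, such floors and all intervals below cover only the error of counting. Mesenchymal markers were abundant, with miR-21, miR-143, miR-145, miR-199a-5p, miR-199a-3p and miR-214 together at 281580.5 to 304757.6 CPM per library. Of these 6, miR-214 fell, a call that ended without WT replicate 1 or with upper quartile factors, and 5 did not pass. Over all tested miRNAs 8.60% were called lower and 4.75% higher in TghuTNF.

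miR-135b was nearly gone from TghuTNF fibroblasts. It had 4 and 5 matching reads in the TghuTNF libraries, against 300 and 384 in the WT libraries. On the CPM scale these were 0.145 and 0.222 in TghuTNF, against 18.3 and 14.1 in WT. The genotypes did not overlap: both TghuTNF libraries lay below both WT libraries, as was the case for 29.9% of 442 tested miRNAs. In TghuTNF the exact 95% Poisson intervals were 0.0395 to 0.371 and 0.0721 to 0.518 CPM and overlapped each other. In WT they were 16.3 to 20.4 CPM in replicate 1 and 12.7 to 15.6 CPM in replicate 2, so the WT cultures differed from each other by more than counting error.

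miR-135b averaged 0.183 ± 0.0545 CPM in TghuTNF and 16.2 ± 2.94 CPM in WT (SD, n = 2 each). Its summed TghuTNF reads per scaled match were 0.0115 times those of WT (exact 95% interval 0.00522 to 0.0219). At the WT rate the TghuTNF libraries would have held 785 reads of it, where 9 were counted. By number of matching reads miR-135b ranked 479 of 556 and 454 of 545 listed miRNAs in TghuTNF, against 220 of 532 and 234 of 541 in WT. It was thus a miRNA of middling abundance in the WT cultures. Since bulk RNA was sequenced, fewer cells that make a miRNA and less of it per cell cannot be told apart.

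**Figure D1:**
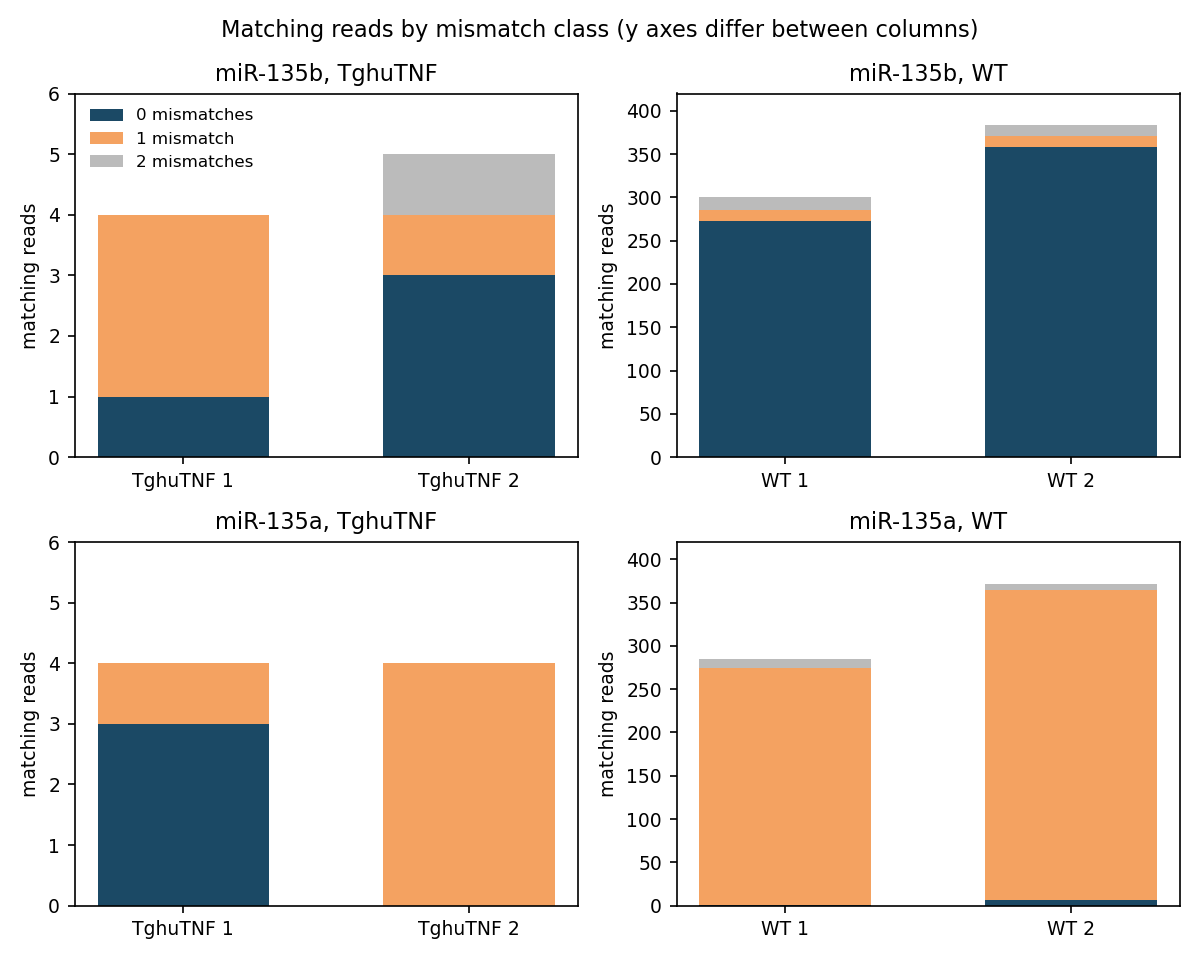
Matching reads of miR-135b (top) and miR-135a (bottom) in each library (x axis, replicates 1 and 2) with 0, 1 and 2 mismatches stacked (y axis, reads, with its own scale for TghuTNF and for WT). In WT, miR-135b is made up almost wholly of perfect matches and miR-135a of 1-mismatch matches, while the TghuTNF bars stop at 4 and 5 reads.

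The mismatch classes show whose reads these were. Of the WT matches of miR-135b, 91.0% (exact 95% binomial interval 87.2% to 94.0%) were perfect in replicate 1 and 93.2% (90.2% to 95.5%) in replicate 2. Over all 4 libraries 91.6% of its matches were perfect, where the median of the tested miRNAs was 64.2%, and 49 of 442 had a higher share. Counting perfect matches alone, miR-135b had 1 and 3 reads in TghuTNF, against 273 and 358 in WT. The groups again did not overlap, and the TghuTNF mean was 0.0847 ± 0.0686 CPM where the WT mean was 14.9 ± 2.45 CPM (SD, n = 2 each). The ratio of TghuTNF to WT was then 0.00552 (exact 95% interval 0.0015 to 0.0142).

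miR-135a looked alike at first sight. Its row held 4 and 4 matching reads in TghuTNF, against 285 and 371 in WT, which is 0.145 and 0.178 CPM in TghuTNF, against 17.3 and 13.6 CPM in WT. But only 1.66% of its 664 matches were perfect, and 95.8% had 1 mismatch. The share of perfect matches was lower in 26 of the 442 tested miRNAs.

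The 1-mismatch matches of miR-135a repeated, almost read for read, the perfect matches of miR-135b. In TghuTNF replicate 1 there was 1 perfect match of miR-135b and 1 match of miR-135a with 1 mismatch. In TghuTNF replicate 2 these were 3 and 4. In WT replicate 1 they were 273 and 273, and in WT replicate 2 they were 358 and 358. The counts were equal in 3 of the 4 libraries and differed by 1 read in the other, TghuTNF replicate 2. The next class followed the same step: the 1-mismatch matches of miR-135b left after taking away the perfect ones of miR-135a were 12 and 6 in WT, beside 11 and 6 matches of miR-135a with 2 mismatches. Adding the 2 rows would give 585 and 755 reads in WT, where as few as 300 and 384 separate reads can account for both.

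**Figure D2:**
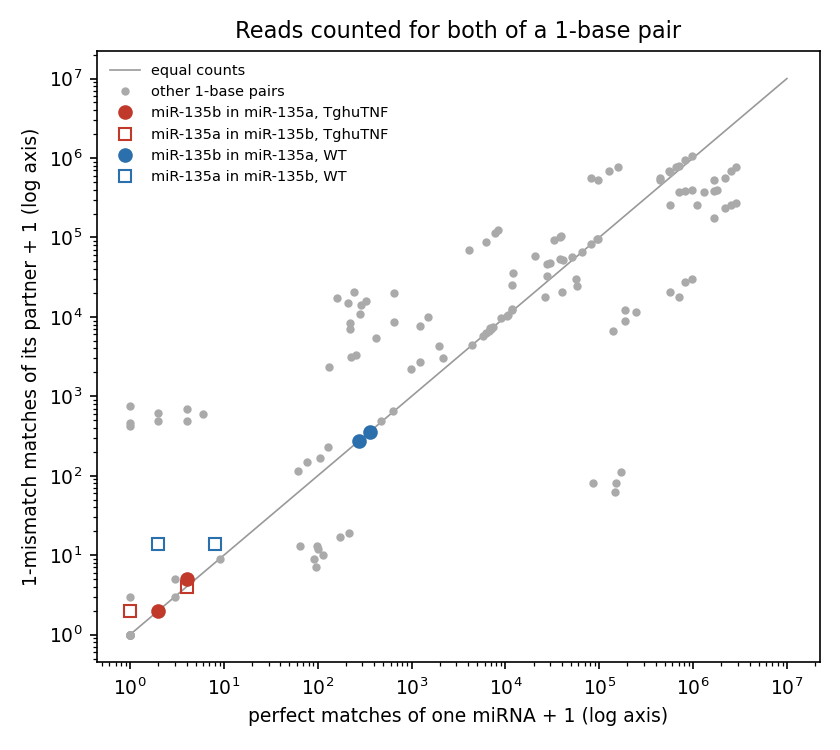
Perfect matches of one miRNA plus 1 (x axis, log scale) beside the 1-mismatch matches of its partner plus 1 (y axis, log scale), 1 point per library and direction. The miR-135 pair is in colour, and 17 other pairs that differ by 1 base in the RefSeq sequences paired by name are in grey. The line marks equal counts. The filled WT points (273 and 358 reads) lie on the line, and the grey points lie on both sides of it.

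Reads with the exact sequence of miR-135a were scarce in both genotypes. There were 3 and 0 of them in TghuTNF, against 1 and 7 in WT. The groups overlapped, since TghuTNF replicate 1 (0.109 CPM) lay above WT replicate 1 (0.0609 CPM) and below WT replicate 2 (0.257 CPM). TghuTNF replicate 2, at 0 reads, allows up to 0.133 CPM by the one-sided limit of 3 counts. The ratio of TghuTNF to WT was 0.327 with an exact 95% interval from 0.0558 to 1.36, which includes 1, so a difference of miR-135a itself was not detectable at this depth. All 3 TghuTNF reads came from replicate 1, so the ratio and its interval, which cover counting error only, rest on that library.

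Within the pair, the exact miR-135a sequence made up 3 of 4 perfect reads in TghuTNF replicate 1 and 0 of 3 in TghuTNF replicate 2. It made up 0.365% (exact 95% binomial interval 0.00924% to 2.02%) of 274 perfect reads in WT replicate 1 and 1.92% (0.774% to 3.91%) of 365 in WT replicate 2. Nearly all WT reads of the pair were thus miR-135b, while the 4 and 3 perfect TghuTNF reads are too few to give a makeup. A perfect read of miR-135a is also 1 base from miR-135b, and in WT such reads stood beside 12 and 6 other 1-mismatch reads of miR-135b. Whether some were misread miR-135b was not tested.

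**Figure D3:**
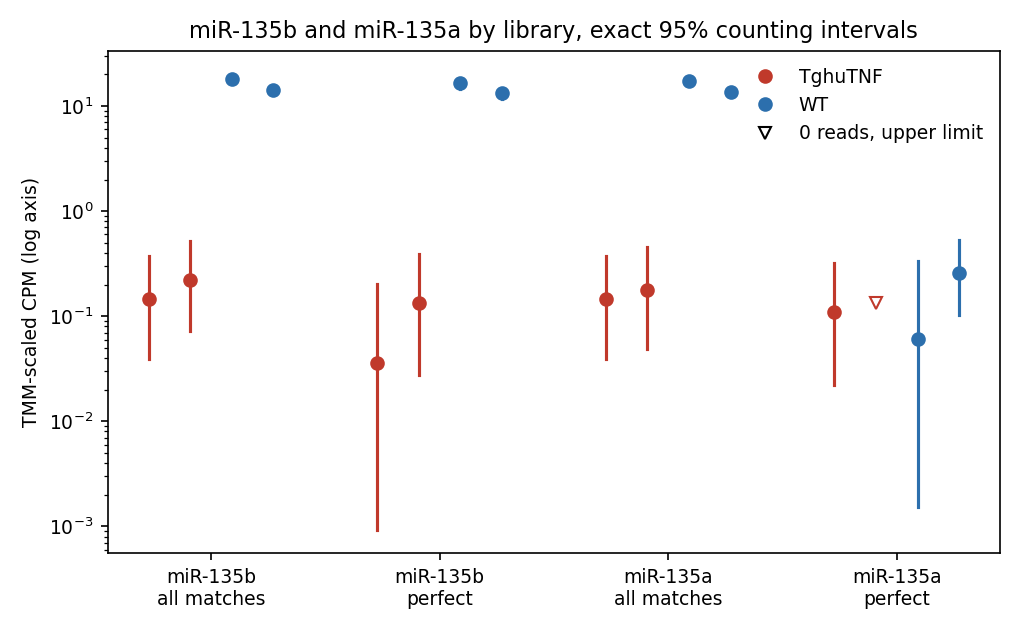
TMM-scaled CPM (y axis, log scale) of miR-135b and miR-135a in each library, for all matches and for perfect matches. Circles are libraries, bars are two-sided exact 95% Poisson intervals and the open triangle is the one-sided limit of 3 counts for a library with 0 reads. WT lies far above TghuTNF in 3 of the 4 sets, and the libraries overlap for perfect matches of miR-135a.

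In the fit over all 442 miRNAs, the log2 fold change (TghuTNF over WT) was -6.44 ± 0.41 (SE) for miR-135b and -6.55 ± 0.41 for miR-135a. These were the 2 lowest values, ahead of miR-335-5p at -4.28. They are not separate measurements, for the reasons above. With perfect matches only, miR-135b stood at -7.43 ± 0.50, and miR-135a had too few reads to pass the filter. Of all tested miRNAs 13.3% passed edgeR's quasi-likelihood test at a Benjamini-Hochberg adjusted p of 0.05, 8.60% lower and 4.75% higher in TghuTNF.

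The miRNAs whose profile over the 4 libraries was nearest to that of miR-135b were miR-335-5p, miR-335-3p, miR-204, miR-483 and miR-322*. Likeness was the Euclidean distance between log2 CPM profiles (prior count 0.5), each centred on its own mean. miR-135a lay at 0.22 from miR-135b, and the others at 2.52, 2.66, 3.45, 3.78 and 3.97 in the order named. miR-335-5p, from a Mest intron, had 50 and 16 reads in TghuTNF, against 590 and 389 in WT. miR-335-3p, the other arm of that hairpin, had 51 and 24 reads in TghuTNF, against 319 and 601 in WT. Both stayed well above the 4 and 5 reads of miR-135b in TghuTNF, although their WT counts were of the same order.

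miR-204, of an intron of Trpm3, had 29 and 13 reads in TghuTNF, against 98 and 200 in WT. miR-483, of an intron of Igf2, had 42 and 19 reads in TghuTNF, against 130 and 185 in WT. miR-322*, the scarcer arm of an X-linked hairpin, had 106 and 27 reads in TghuTNF, against 253 and 337 in WT. All 5 were lower in TghuTNF replicate 2 than in TghuTNF replicate 1 on the CPM scale, whereas miR-135b was at 0.222 CPM in TghuTNF replicate 2 and 0.145 CPM in TghuTNF replicate 1, within counting error. Since these 5 were chosen for this pattern, it is not tested on them.

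**Figure D4:**
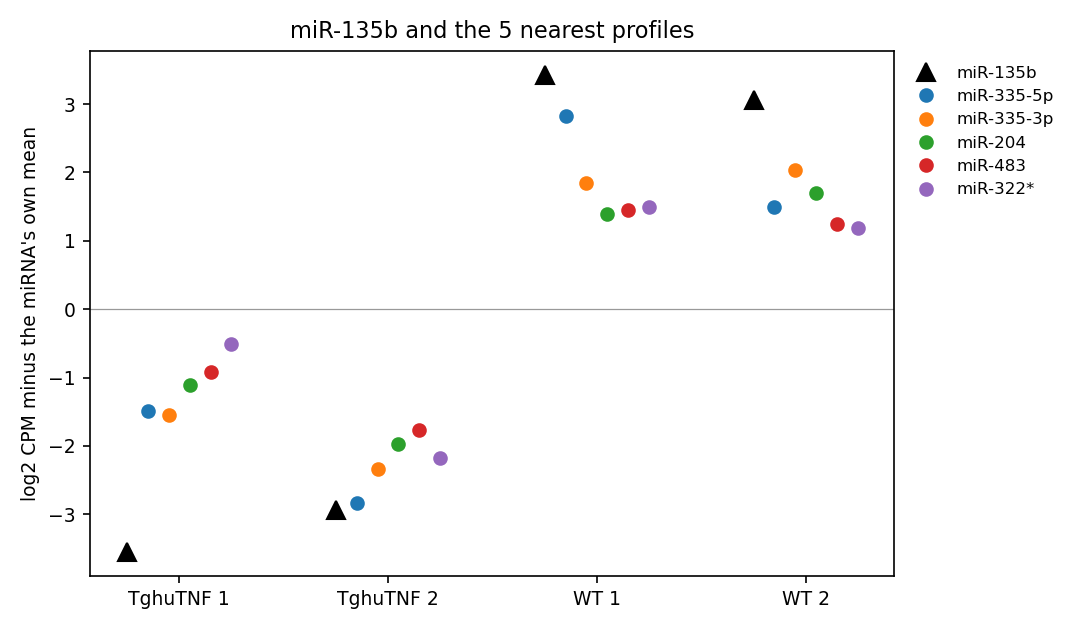
log2 CPM minus the miRNA's own mean over the 4 libraries (y axis, here without a prior count) for miR-135b (triangles) and the 5 miRNAs with the nearest profiles (circles), by library (x axis). All 6 lie below 0 in both TghuTNF libraries and above 0 in both WT libraries, and miR-135b has the widest span.

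miR-135a is one of a group of miRNAs known to repress Runx2 in mouse osteoblast lineage cells. The other 10 names of that group gave 11 rows, of which 10 were tested. Of these 1 fell, 0 rose and 9 did not pass, against 8.60% lower and 4.75% higher over all miRNAs, and their median log2 fold change was 0.16 where that of all tested miRNAs was 0.01. The one that fell was miR-204, at 1.05 and 0.577 CPM in TghuTNF, against 5.96 and 7.35 CPM in WT (log2 fold change -3.01 ± 0.38, edgeR adjusted p = 0.00059).

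The most abundant of the Runx2 group, miR-34c (-0.03 ± 0.15) and miR-23a (0.12 ± 0.18), did not pass, nor did miR-30c (0.21 ± 0.25) and miR-218 (0.39 ± 0.21). miR-133a stood at -0.98 ± 0.38, miR-137 at 0.62 ± 0.42, miR-217 at 0.20 ± 0.53, miR-338-5p at 0.21 ± 0.33 and miR-338-3p at 0.05 ± 0.33, none of which passed. Without TghuTNF replicate 1, miR-133a was called lower as well. miR-205, at 1 and 1 reads in TghuTNF and 2 and 4 in WT, was not tested.

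Of the 3 hairpins, Mir135a-1 has let-7g as a neighbour, 24627 bases away, and Mir135a-2 has Mir1251, 64955 bases away, for which no row was listed. No miRNA hairpin of the RefSeq table lay within 100000 bases of Mir135b. let-7g, a member of the let-7 family, stood at 3639.9 and 3614.0 CPM in TghuTNF, against 3620.1 and 3464.5 CPM in WT, a log2 fold change of 0.03 ± 0.15 that did not pass (adjusted p = 0.91, edgeR). Its scarce partner arm let-7g* stood at 1.01 and 0.932 CPM in TghuTNF, against 1.40 and 1.25 CPM in WT, and did not pass either (-0.43 ± 0.40).

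Markers of other cell types were read beside the pair. The 10 rows of epithelial miRNAs summed to 229.2 and 275.2 CPM in TghuTNF, against 242.3 and 180.8 CPM in WT. These sums overlapped, but the members went opposite ways. miR-182 was at 109.4 and 141.1 CPM in TghuTNF, against 98.6 and 57.6 CPM in WT. miR-183 was at 77.9 and 97.1 CPM in TghuTNF, against 70.5 and 49.0 CPM in WT, and neither passed. The median log2 fold change of the 7 tested epithelial rows was 0.44, where that of all tested miRNAs was 0.01. Their part in the result was not tested. Of 7 tested, 1 fell, 0 rose and 6 did not pass, against 8.60% lower and 4.75% higher over all tested miRNAs. The one that fell was miR-203, a miRNA of stratified epithelium, at 25.2 and 19.8 CPM in TghuTNF, against 59.0 and 62.4 CPM in WT (log2 fold change -1.43 ± 0.24, edgeR adjusted p = 0.0025). Of the defining markers, miR-200c had 139 and 116 reads in TghuTNF, against 70 and 109 in WT, and miR-200b had 158 and 107 reads in TghuTNF, against 66 and 101 in WT. On the CPM scale miR-200c was at 5.03 and 5.15 in TghuTNF, against 4.26 and 4.00 in WT. miR-200b was at 5.72 and 4.75 CPM in TghuTNF, against 4.02 and 3.71 CPM in WT. miR-141 was at 0.507 and 0.622 CPM in TghuTNF, against 0.304 and 0.478 CPM in WT, and none of them passed. Only 6.02% of the matches of miR-200b were perfect (21 and 1 in TghuTNF, 0 and 4 in WT). Whether the rest were reads of miR-200c, which had 133 and 101 perfect matches in TghuTNF and 59 and 90 in WT, was not tested. miR-200a was at 0 in WT replicate 1, miR-429 was at 0 in WT replicate 2, and miR-205 had at most 4 reads in any library. Without WT replicate 1 miR-182 was called higher, and without TghuTNF replicate 1 miR-182 and miR-183 were.

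The 10 rows of neural miRNAs summed to 575.7 and 577.5 CPM in TghuTNF, against 414.5 and 374.2 CPM in WT. Most of that sum was miR-129-5p, at 381.6 and 347.6 CPM in TghuTNF, against 255.4 and 203.0 CPM in WT. It did not pass (adjusted p = 0.051, edgeR). miR-9 overlapped, at 24.8 and 22.6 CPM in TghuTNF, against 23.9 and 33.5 CPM in WT. The scarce miR-219 was lower in TghuTNF, at 0.109 and 0.178 CPM, against 0.183 and 0.22 CPM in WT. The part of these rows in the result was not tested. Of 7 neural miRNAs tested, 2 rose, 0 fell and 5 did not pass, against 4.75% higher and 8.60% lower over all tested miRNAs. The same shares stand beside the counts of the lists below. miR-129-3p was at 11.1 and 12.3 CPM in TghuTNF, against 5.30 and 5.00 CPM in WT (log2 fold change 1.19 ± 0.27, adjusted p = 0.014, edgeR). miR-138 stood at 1.12 ± 0.29. Both calls ended without WT replicate 1 or WT replicate 2, and that of miR-138 also with upper quartile factors or perfect matches only. miR-124, the defining neuronal miRNA, was at 3 and 1 reads in TghuTNF and at 0 in both WT libraries, and none of its reads was a perfect match. Endothelial markers, miR-126-3p and miR-126-5p, summed to 68.8 and 66.7 CPM in TghuTNF, against 126.7 and 107.6 CPM in WT, and muscle markers to 2055.4 and 1783.7 CPM in TghuTNF, against 2426.4 and 3008.4 CPM in WT. Of 2 endothelial markers 1 fell (miR-126-3p, whose call ended without WT replicate 1 or WT replicate 2), and of 5 muscle rows 0 passed. Among these, miR-133a and miR-133b each had 33 and 21 reads in TghuTNF. In WT miR-133a had 36 and 56 reads and miR-133b 36 and 55, so their rows may not be separate. The endothelial and muscle lists summed lower in TghuTNF, and their part in the result was not tested. Most of the muscle sum was miR-206, at 1377.2 and 1158.0 CPM in TghuTNF, against 1669.5 and 2003.4 CPM in WT. Next came miR-1, at 674.4 and 622.7 CPM in TghuTNF, against 752.1 and 1000.2 CPM in WT. The scarce miR-499 went the other way, at 1.45 and 1.11 CPM in TghuTNF, against 0.365 and 0.698 CPM in WT. Blood markers summed to 34.1 to 48.0 CPM in TghuTNF, against 30.1 to 43.8 CPM in WT, and overlapped, but their members went opposite ways. The leukocyte miRNA miR-142-3p was at 20.8 and 16.3 CPM in TghuTNF, against 12.7 and 5.14 CPM in WT, and miR-223 of myeloid cells was at 3.26 and 2.40 CPM in TghuTNF, against 0.609 and 0.294 CPM in WT. The erythroid miR-486 was at 19.2 and 12.5 CPM in TghuTNF, against 27.7 and 23.6 CPM in WT. The median log2 fold change of the 4 tested blood markers was 1.13, where that of all tested miRNAs was 0.01, and their part in the result was not tested. Chondrocyte markers (18525.8 to 26040.7 CPM in TghuTNF, against 12314.6 to 13108.5 CPM in WT) summed higher in TghuTNF. Of 4 tested blood markers miR-223 rose and 3 did not pass, and of 4 chondrocyte markers 2 rose (miR-140 and miR-140*) and 2 fell (miR-455 and miR-455*). The rise of miR-223 lost its call without WT replicate 2, those of miR-140 and miR-140* without TghuTNF replicate 2 (that of miR-140 also with upper quartile factors), and the fall of miR-455* without WT replicate 1.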

How the data were processed

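The authors' deposited tables hold raw counts of reads matching each mature miRNA, 1 table per library, made with mimap (version 3d). This program, per the file headers, compared 37-base reads with 707 miRNAs of the mouse, allowed up to 2 mismatches and used a hash length of 9. Beside each count the authors deposited another field that splits it into 3 mismatch classes (0, 1 and 2). How reads were trimmed, which miRBase release or genome build was used, and how reads fitting more than 1 miRNA were treated is not given in the sources used here. From the counts, miRNAs were filtered with filterByExpr (442 kept), scaled with TMM and fitted with edgeR 4.0.16 in R 4.3.3 (quasi-likelihood, genotype as the only term, two-sided, Benjamini-Hochberg over all 442, threshold 0.05). An SE is the log2 fold change over the square root of its F statistic. The fit was checked on simulated counts. miRNAs were paired with RefSeq sequences by name, except miR-135b, which was read from its RefSeq hairpin (both members taken as 5p arms), and genes came from GENCODE M21. The series' design text calls the libraries biological replicates, and p-values reflect the spread among them.

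The miRNAs named are both members, the 5 nearest profiles, neighbours within 100000 bases and the Runx2 group. Also named are the called markers and some other markers, not always the most abundant. Of the 1-base partners, the 5 pairs with the highest counts are named, besides those given as examples. Members and lists were chosen with earlier results of these data known. Alternatives were DESeq2 1.42.0, other scalings, no filter, perfect matches, leaving out each library and a replicate block.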

Additional observations from a re-analysis of the deposited data

How the results depend on the processing

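The log2 fold change of miR-135b lay between -6.77 and -6.22 when each library was left out in turn, and was -7.43 with perfect matches only. That of miR-135a lay between -6.71 and -6.37, and with perfect matches only it could not be fitted, since too few reads passed the filter. The replicate block gave -6.44 for miR-135b and -6.55 for miR-135a. DESeq2 and the other scalings moved neither by more than its SE. Counting only exactly equal classes, miR-135b and miR-135a again matched in 3 libraries. Same-numbered libraries deviated from their genotype means with a correlation of -0.108 over miRNAs. With 2 libraries per genotype, this value cannot tell whether they share more than a number. Over all miRNAs 59 were called, 93 without the filter, 69 with DESeq2, 87 with the replicate block, 55 with the crossed pairing (chosen after seeing the data) and 49 to 153 with a library left out, the highest without TghuTNF replicate 1. Those fits leave 1 library of a genotype, which is assumed to vary like the other pair. The Runx2 group had 1 to 2 calls with a library left out. The epithelial list had 2 calls without the filter, 2 with the replicate block and 1 to 3 with a library left out. The neural list had 1 call with upper quartile factors, 1 with perfect matches only and 0 to 3 with a library left out. The 4 and 5 reads of miR-135b in TghuTNF limit how closely its fall can be sized, and miR-135a rests on 11 perfect reads in all. Why these counts moved was not tested.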

Other observations

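Reads were not counted for both partners in every near-identical pair. Besides miR-135a and miR-135b, 17 pairs of listed miRNAs differ by 1 base in the RefSeq sequences paired with them by name. Of these pairs, 15 gave 106 comparisons (pair by direction by library) with at least 100 perfect matches. The 1-mismatch count of the partner was at least the perfect count in 70 of the 106, and within 5% of it in 18. Split by position after the values were seen, pairs that differ at positions 10 to 12 from the 5′ end, as miR-135a and miR-135b do at position 11, had a partner count at least as high in 54 of 54 comparisons. Pairs that differ elsewhere, at position 9 or at positions 16 to 22, had it in 16 of 52. This measure is also met where the partner has many 1-mismatch reads of its own, whether or not reads are shared. In TghuTNF replicate 1, for example, 653 perfect matches of miR-10a stood beside 19962 of miR-10b with 1 mismatch. The counts lay within 5% of each other in 18 of 54 comparisons at positions 10 to 12 and in 0 of 52 elsewhere.

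miR-29a and miR-29c, which differ at position 10 and were chosen after their values were seen, gave the same picture as the miR-135 pair: 64880 perfect matches of miR-29a stood beside 64896 matches of miR-29c with 1 mismatch in WT replicate 1. Of the pairs with the highest counts, let-7a and let-7f differ at position 12, and 572228 perfect matches of let-7a stood beside 659366 matches of let-7f with 1 mismatch there. In the directions given next the partner's count was lower. miR-27b had 138924 perfect matches in that library and miR-27a 6558 with 1 mismatch (position 19). let-7c had 1677342 perfect matches, against 534151 with 1 mismatch for let-7a (position 19) and 173281 for let-7b (position 17), and let-7a had 572228, against 20708 with 1 mismatch for let-7e (position 9).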
